A study of Mus musculus with 6 samples.

Results

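The genes of antigen presentation were examined in the livers of acute ethanol-exposed and control mice. Members were the rows of the deposited gene table whose symbol begins with H2-, together with B2m, Tap1, Tap2, Tapbp, Cd74, Ciita and Nlrc5. This gave 41 of 28880 rows, of which 28 belonged to the class I side, 11 to the class II side and 2 carried the symbol H2-K2, once as a lncRNA and once as a pseudogene. After the filter on low counts, 34 of the 41 were tested among 16717 genes in all, comprising 22 class I members, 10 class II members and both H2-K2 rows. Class I was kept apart from class II throughout.

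Liver RNA was sequenced from 3 ethanol-exposed and 3 control mice, all wild type C57BL/6J males aged 6 to 8 weeks. Ethanol-exposed mice were fasted for 12 h, were gavaged by mouth with 1 dose of 6 g/kg ethanol, given as a 50% solution by volume, and were sampled 24 h later. Control mice received no ethanol, and the labels do not say whether they were fasted or gavaged, so ethanol, fasting and gavage cannot be told apart here. Libraries held 60514417 to 74210869 counts, of which the members took 0.549% to 0.622%.

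Class I molecules are made by nearly all nucleated cells. A polymorphic heavy chain pairs with the light chain beta 2-microglobulin and carries peptides, cut by the proteasome and pumped into the endoplasmic reticulum by the TAP transporter, to CD8 T cells and to receptors of natural killer cells. Class II molecules are made mainly by professional antigen-presenting cells, which in liver are Kupffer cells, dendritic cells and B cells. Their alpha and beta chains travel with the invariant chain Cd74 to endosomes, where H2-DM exchanges a fragment of it for peptide for CD4 T cells. The transactivators Nlrc5 and Ciita drive the class I and class II genes through the same promoter module, whose parts include the X2 and Y boxes. Class I promoters carry in addition sites for NF-kB and for interferon regulatory factors.

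The promoters of 6 members are printed because they show how the classical class I genes, the Q genes, the light chain and a class II gene differ in these boxes. Each line is 200 bases before the annotated start, 5′ to 3′ on the strand of the gene, from RefSeq on GRCm38.p6, where 24 of 40 member symbols had a promoter. Capitals mark matches, on either strand, to the following motifs, in which N is any base. The NF-kB-type site was read as GGG-NN-T-N-CCC, the class I interferon response element as GAA-NN-GAAAC, the interferon-stimulated response element as GAAA-NN-GAAA, the X2 box as TGATGC or TGACGC and the Y box as ATTGG. H2-K1 lies at chr17:34000348-34000547, minus strand, H2-D1 at chr17:35262894-35263093, plus strand, H2-Q4 at chr17:35379417-35379616, plus strand, H2-Q10 at chr17:35469889-35470088, plus strand, B2m at chr2:122147487-122147686, plus strand, and H2-Eb1 at chr17:34305667-34305866, plus strand.
H2-K1: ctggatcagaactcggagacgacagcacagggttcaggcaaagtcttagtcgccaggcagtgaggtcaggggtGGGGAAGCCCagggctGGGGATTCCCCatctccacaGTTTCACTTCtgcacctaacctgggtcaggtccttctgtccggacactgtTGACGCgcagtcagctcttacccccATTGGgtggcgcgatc
H2-D1: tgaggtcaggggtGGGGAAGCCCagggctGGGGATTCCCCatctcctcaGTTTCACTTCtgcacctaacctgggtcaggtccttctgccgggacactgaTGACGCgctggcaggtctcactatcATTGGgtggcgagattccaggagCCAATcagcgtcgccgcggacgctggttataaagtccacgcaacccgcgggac
H2-Q4: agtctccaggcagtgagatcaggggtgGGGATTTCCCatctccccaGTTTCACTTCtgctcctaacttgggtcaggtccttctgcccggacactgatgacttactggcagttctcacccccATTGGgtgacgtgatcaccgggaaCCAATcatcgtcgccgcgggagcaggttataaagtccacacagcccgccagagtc
H2-Q10: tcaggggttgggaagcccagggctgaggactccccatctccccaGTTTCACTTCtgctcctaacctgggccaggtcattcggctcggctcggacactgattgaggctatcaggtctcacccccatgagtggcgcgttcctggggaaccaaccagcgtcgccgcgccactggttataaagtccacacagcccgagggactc
B2m: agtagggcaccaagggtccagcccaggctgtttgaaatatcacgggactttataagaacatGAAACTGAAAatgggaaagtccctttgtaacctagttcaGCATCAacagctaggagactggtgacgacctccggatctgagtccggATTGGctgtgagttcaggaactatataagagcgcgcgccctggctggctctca
H2-Eb1: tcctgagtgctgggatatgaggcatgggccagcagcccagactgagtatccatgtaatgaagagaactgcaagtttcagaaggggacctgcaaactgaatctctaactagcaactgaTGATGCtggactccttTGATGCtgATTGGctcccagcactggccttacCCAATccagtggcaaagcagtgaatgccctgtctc

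H2-K1 and H2-D1 shared the order NF-kB-type site, interferon element, X2 box and Y box, and their coding sequences were 92% identical over aligned bases. In H2-Q10 only the interferon element GTTTCACTTC was matched. B2m carried GAAACTGAAA in its place, and H2-Eb1 had X2 and Y boxes with neither interferon element. Over 250 bases before the start, the NF-kB-type letters were found in 5 of 16 class I promoters, 2 of 8 class II promoters and 4.29% of all 32851 promoters. The class I interferon element was found in 8 of 16, 0 of 8 and 1.45%, and the interferon-stimulated element, which can overlap it, in 3 of 16, 0 of 8 and 2.98%. The X2 box was found in 7 of 16, 5 of 8 and 14.8%, and the Y box in 14 of 16, 7 of 8 and 33.8%. On both strands the NF-kB-type letters can match overlapping bases. These are letter matches in a window, and no binding was measured.

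Levels are given as TMM-scaled FPKM, the deposited FPKM (fragments per unit of transcript length and of sequencing depth) divided by the TMM factor of the library. TMM factors set the libraries to a common scale, and they differed between the groups, with 0.768 to 0.836 in ethanol-exposed and 1.26 to 1.27 in control mice. The log2 fold change of ethanol minus control had a median over all genes of -0.04 under TMM and of -0.71 under library size alone. Members of each class are therefore also counted against that median, and some are placed against it singly. A gene was a DEG where its log2 fold change exceeded 1 in size and its Benjamini-Hochberg adjusted p from edgeR's quasi-likelihood test was below 0.05. Every adjusted p below comes from that test unless another tool is named.

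Under TMM scaling, most class I genes were higher in ethanol-exposed livers. Upregulated DEGs were 7 of 22 tested members (31.8%), against 10.4% of all genes tested, and downregulated DEGs were 0 of 22, against 13.8%. Under library size alone they were 2 and 1, against 846 and 5385 of all 16717 genes. Limma on log2(FPKM + 0.1) and on log2(FPKM + 1) gave 1 and 0 upregulated, against 498 and 395 genes in all. Its counts are not out of 16717, since it kept only genes with an FPKM of at least 1 in at least 3 libraries. The size of that set is not given here. At an unadjusted p under 0.05 in edgeR under TMM, 1 member was lower, H2-T24. DESeq2 and library size alone made it a downregulated DEG. Limma on FPKM tested 16 members, H2-T24 not among them, and gave 0 downregulated. Over all genes it gave 3090 downregulated on log2(FPKM + 0.1) and 1702 on log2(FPKM + 1). On the adjusted p alone under TMM 13 were higher (59.1%, against 21.5%) and 0 were lower (against 21.5%). Under library size alone, H2-D1, H2-Q4, H2-T10 and H2-Bl were higher on the adjusted p, and H2-M3, H2-T24, Tapbp and Tap2 were lower. Of the latter, Tapbp lay above the median of all genes on that scale and the others below it. In TMM-scaled values, the lowest ethanol-exposed mouse lay above the highest control mouse for 16 members (72.7%, against 28.0%). The reverse held for H2-T24 alone (against 31.0%). Over all genes tested and both directions, 24.2% were DEGs, 43.0% passed on the adjusted p alone and 59.0% had groups that did not overlap. The median log2 fold change of the 22 was 0.86 under TMM and 0.19 under library size alone. The number above zero was 19 under TMM and 13 under library size alone. Relative to the median of all genes 19 of 22 were higher, a count that a scaling shifting all genes alike cannot change.

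The classical heavy chains H2-K1 and H2-D1, the main peptide presenters to CD8 T cells, varied little between the mice of a group. H2-K1 stood at 539, 494 and 542 TMM-scaled FPKM in the ethanol-exposed mice and at 292, 279 and 278 in the control mice. The groups did not overlap. Its log2 fold change was 0.89 (SE 0.10, adjusted p = 0.000886), a 1.86-fold higher level that stayed under the fold threshold for a DEG. H2-D1 stood at 302, 281 and 301 against 132, 130 and 130, with a log2 fold change of 1.18 (SE 0.10, adjusted p = 0.000248). H2-D1 was thus 2.27-fold higher, and leaving out any 1 mouse moved its log2 fold change only from 1.16 to 1.21. Under library size alone, H2-K1 was at 0.22 (adjusted p = 0.106) and H2-D1 at 0.51 (adjusted p = 0.00428), both above the median of all genes on that scale.

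The ratio of both genes within a library does not depend on the scaling. H2-D1 over H2-K1 was 0.561, 0.569 and 0.557 in ethanol-exposed mice and 0.450, 0.465 and 0.466 in control mice. H2-D1 therefore changed more than H2-K1 in each comparison of mice, and the ratios of the groups did not overlap. Of the 150-base windows of the H2-D1 transcript, 1.79% occur in another gene, mostly H2-Q1, and of H2-K1 none do.

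**Figure D1:**
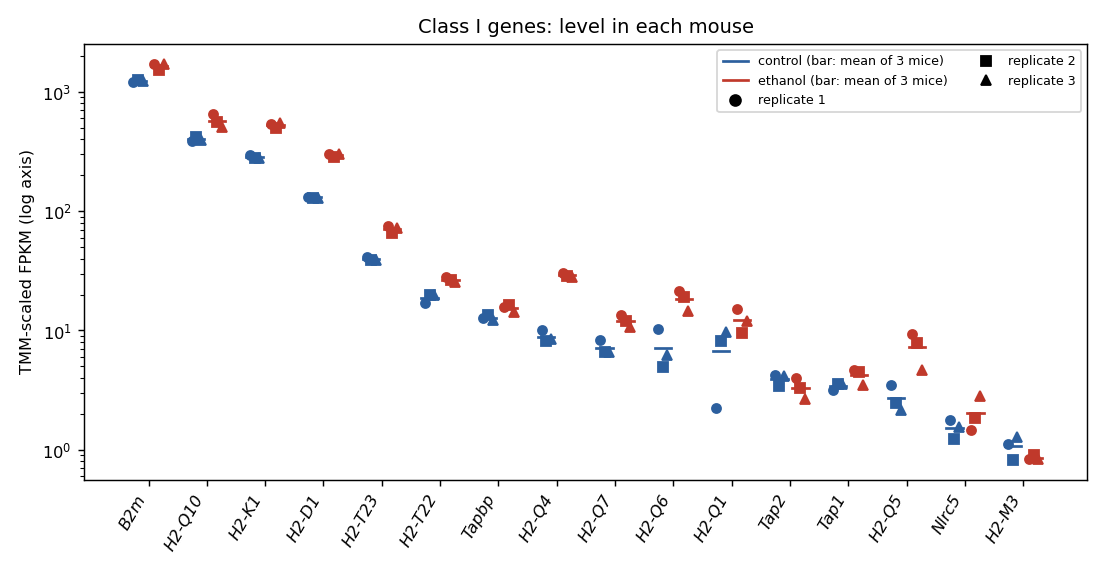
TMM-scaled FPKM (log axis) of the class I members with a control mean above 1, in each of 3 control (blue) and 3 ethanol-exposed (red) mice, with bars at the group means. H2-D1 lies at 281 to 302 in ethanol-exposed and at 130 to 132 in control mice, and the replicate 1 control of H2-Q1 sits apart at 2.25. On library size alone B2m, H2-Q10, H2-T22, Tapbp, Tap1 and Nlrc5 turn lower in ethanol.

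Among the Q genes, non-classical heavy chains encoded beside H2-D1, 4 of 7 tested were upregulated, beside 10.4% of all genes. H2-Q4 had the clearest separation, with 30.5, 28.8 and 28.3 TMM-scaled FPKM in ethanol-exposed mice and 10.1, 8.16 and 8.44 in control mice. This was a 3.29-fold higher level, or a log2 fold change of 1.72 (SE 0.12, adjusted p = 0.000137). None of its 150-base windows occur in another gene, and it remained a DEG under library size alone at 1.05 (adjusted p = 0.000483). H2-Q6 stood at 21.3, 19.0 and 14.5 against 10.2, 4.97 and 6.19, a log2 fold change of 1.36 (SE 0.28, adjusted p = 0.00768). H2-Q5 stood at 9.37, 7.83 and 4.71 against 3.51, 2.48 and 2.17, a log2 fold change of 1.42 (SE 0.30, adjusted p = 0.00815). Neither was a DEG under library size alone, H2-Q6 at 0.70 (adjusted p = 0.0711) and H2-Q5 at 0.76 (adjusted p = 0.0673). In both genes ethanol replicate 3 was the lowest ethanol-exposed mouse and still above every control mouse.

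H2-Q2 was low, at 0.658, 0.595 and 0.721 against 0.192, 0.274 and 0.391 TMM-scaled FPKM. It was a DEG (log2 fold change 1.20, SE 0.35, adjusted p = 0.0281) but not without control replicate 1 (0.97), without control replicate 2 (1.17) or without ethanol replicate 1 (1.19), nor under library size alone (0.53, adjusted p = 0.232). H2-Q7, which with H2-Q6 encodes the Qa-2 antigen, stood at 13.6, 12.1 and 10.7 against 8.38, 6.56 and 6.67. Its log2 fold change of 0.75 passed on the adjusted p alone (0.00565), but was 0.09 under library size alone (adjusted p = 0.654). H2-Q6 and H2-Q7 were 95.4% identical in coding sequence, and 5.99% of the windows of H2-Q6 and 9.68% of those of H2-Q7 occur in another gene, mostly in each other, so reads may have been split between them. H2-Q1 stood at 15.2, 9.58 and 12.1 against 2.25, 8.19 and 9.67. Control replicate 1 was far below the other control mice, the groups overlapped, and its log2 fold change of 0.88 (SE 0.48) did not pass (adjusted p = 0.180). It was 0.46 without control replicate 1 and 1.23 without control replicate 3.

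H2-Q10 encodes a secreted class I molecule made by hepatocytes and was the most abundant heavy chain in control livers. It stood at 646, 559 and 503 TMM-scaled FPKM in ethanol-exposed and 385, 414 and 396 in control mice. The groups did not overlap, and its log2 fold change of 0.52 (SE 0.13, adjusted p = 0.0163) passed on the adjusted p alone under TMM but was -0.15 under library size alone. Leaving out ethanol replicate 1 or any 1 control mouse took its adjusted p to between 0.0505 and 0.0681. Measured within libraries, H2-Q10 over H2-K1 was 1.20, 1.13 and 0.928 in ethanol-exposed and 1.32, 1.49 and 1.42 in control mice. H2-K1 overtook H2-Q10 only in ethanol replicate 3, and each ethanol-exposed mouse had a lower ratio than every control mouse.

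The T and M regions hold further non-classical genes. H2-T23, which encodes Qa-1, a ligand of the CD94/NKG2 receptors of natural killer cells, stood at 75.1, 65.1 and 71.8 against 41.1, 38.6 and 38.6 TMM-scaled FPKM. The groups were apart, with a log2 fold change of 0.85 (SE 0.10, adjusted p = 0.000984) that was 0.18 under library size alone (adjusted p = 0.178). H2-T22, a ligand of gamma delta T cells, stood at 28.0, 26.5 and 25.7 against 17.1, 19.7 and 19.9, with a log2 fold change of 0.50 (SE 0.10, adjusted p = 0.00785) that was -0.16 under library size alone. Its close relative H2-T10 was lower in level, at 1.64, 1.35 and 1.09 against 0.543, 0.419 and 0.614, and was a DEG at 1.37 (SE 0.25, adjusted p = 0.00476), but not under library size alone (0.70, adjusted p = 0.0487). H2-T10 and H2-T22 share 1.13% and 0.931% of their windows with another gene, in both cases mostly with each other, and H2-T10 overlaps H2-T25 on the same strand.

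H2-Bl had the largest log2 fold change of the 34 members tested, 3.79 (SE 0.63, adjusted p = 0.00329). It rested on few reads, with 298, 227 and 84 counts in ethanol-exposed and 40, 9 and 16 in control mice. Without control replicate 1 its log2 fold change was 4.45. The pseudogene H2-T-ps, at 53, 59 and 40 counts against 34, 37 and 48, did not pass (0.87, adjusted p = 0.0934). H2-T25, with 28, 25 and 25 counts against 38, 0 and 0, did not pass either (1.70, SE 1.41, adjusted p = 0.361), shares 27.4% of its windows with other genes, and passed the filter with only 1 control library.

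H2-T24 and H2-M3 went the other way without passing the test under TMM. H2-T24 had 22, 0 and 19 counts in ethanol-exposed and 144, 89 and 109 in control mice, so the groups did not overlap. Its log2 fold change of -2.46 (SE 0.93) had an adjusted p of 0.0673, and it became a DEG without ethanol replicate 2 (-1.87), without ethanol replicate 3 (-2.81), and under library size alone (-3.16, adjusted p = 0.0209). A gene on the opposite strand, A930015D03Rik, overlaps H2-T22, H2-T23 and H2-T24, and whether the counting used the strand is not stated. H2-M3, which presents formylated peptides of bacteria, had 75, 86 and 71 counts against 164, 97 and 162 and a log2 fold change of -0.31 (adjusted p = 0.379). It passed on the adjusted p alone under library size alone (-0.98, adjusted p = 0.0198). In limma it also passed, on log2(FPKM + 0.1) at -0.88 (adjusted p = 0.00649) and on log2(FPKM + 1) at -0.48 (adjusted p = 0.00558). The 6 class I members not tested, H2-T27, H2-T26, H2-M2, H2-M5, H2-M6-ps and H2-Q3, had 0 to 11 counts in every library.

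**Figure D2:**
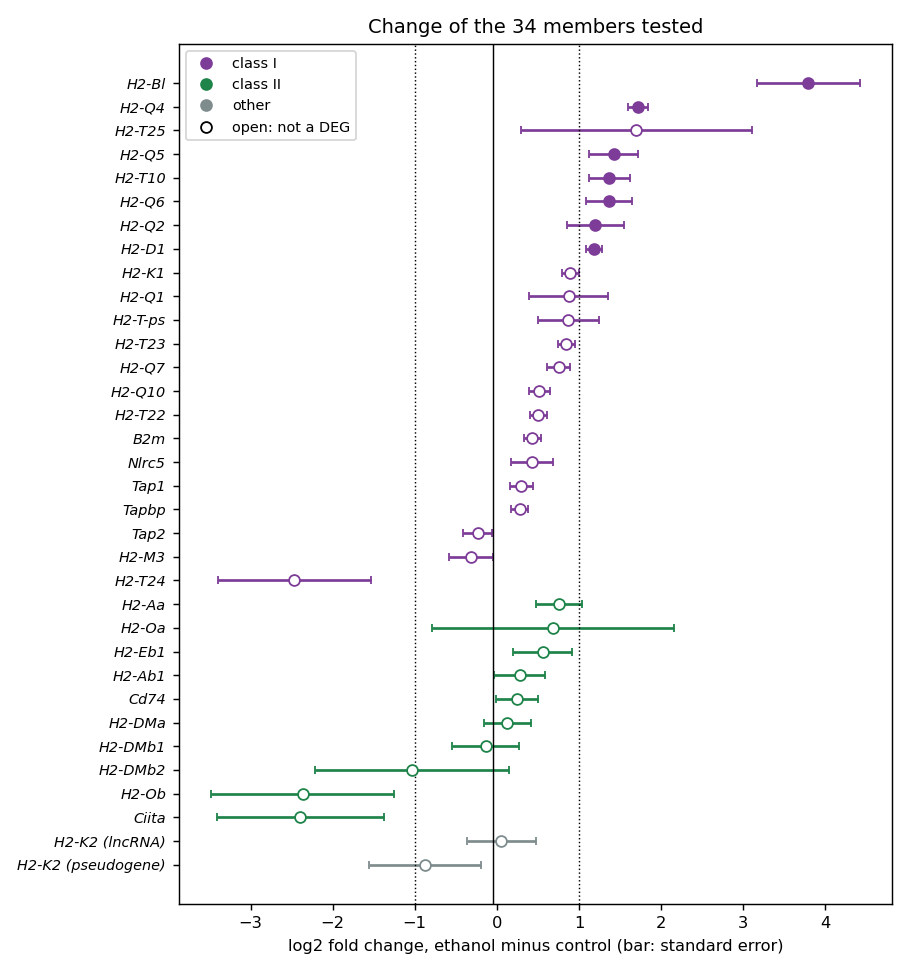
Log2 fold change (ethanol minus control, TMM scaling) of the 34 members tested, with standard errors, dotted lines at -1 and 1 and a solid line at the median of all genes, -0.04. Filled points are DEGs, which are 7 class I genes and no class II gene. Under library size alone 11 of these values change sign, among them B2m, H2-Q10, Tap1 and Cd74.

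The light chain B2m, shared by all class I heavy chains, was the most abundant member. It stood at 1712, 1532 and 1710 TMM-scaled FPKM in ethanol-exposed and 1201, 1244 and 1234 in control mice. Its log2 fold change of 0.43 (SE 0.11, adjusted p = 0.0151) passed on the adjusted p alone under TMM and was -0.24 under library size alone. It no longer passed without control replicate 2 (adjusted p = 0.0667) or control replicate 3 (0.0649). B2m over H2-K1 was 3.18, 3.10 and 3.16 in ethanol-exposed and 4.11, 4.46 and 4.44 in control mice, so that relative to H2-K1 the light chain was lower in each ethanol-exposed mouse. When the counts of 18 class I genes (H2-K1, H2-D1 and all rows of the Q and T series) were summed and tested as 1 feature, the log2 fold change was 0.74 (SE 0.11, adjusted p = 0.00229).

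Peptide loading genes showed no DEG among 3 tested, beside 24.2% of all genes in either direction. Tapbp alone of the 3 had an unadjusted p under 0.05 in edgeR, and the class I regulator was not a DEG. Tapbp, the tapasin that bridges TAP and the heavy chain, stood at 15.7, 16.3 and 14.3 against 12.7, 13.5 and 12.2, with a log2 fold change of 0.28 (SE 0.10, adjusted p = 0.0615) and groups that did not overlap. Tap1 stood at 4.68, 4.53 and 3.47 against 3.20, 3.60 and 3.56 and Tap2, the other subunit of the transporter, at 3.98, 3.30 and 2.68 against 4.21, 3.40 and 4.13. Their log2 fold changes were 0.30 (SE 0.14, adjusted p = 0.128) and -0.23 (SE 0.18, adjusted p = 0.316). The groups overlapped for both genes. Nlrc5, the class I transactivator, stood at 1.48, 1.85 and 2.80 against 1.78, 1.22 and 1.56, with overlapping groups and a log2 fold change of 0.43 (SE 0.25, adjusted p = 0.212). Scaled by library size alone, Tap2 (-0.90, adjusted p = 0.00488) and Tapbp (-0.39, adjusted p = 0.0259) were lower on the adjusted p alone, and Tap1 was at -0.37 and Nlrc5 at -0.25. Against the median of all genes on that scale, -0.71, Tapbp, Tap1 and Nlrc5 were higher and Tap2 lower.

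**Figure D3:**
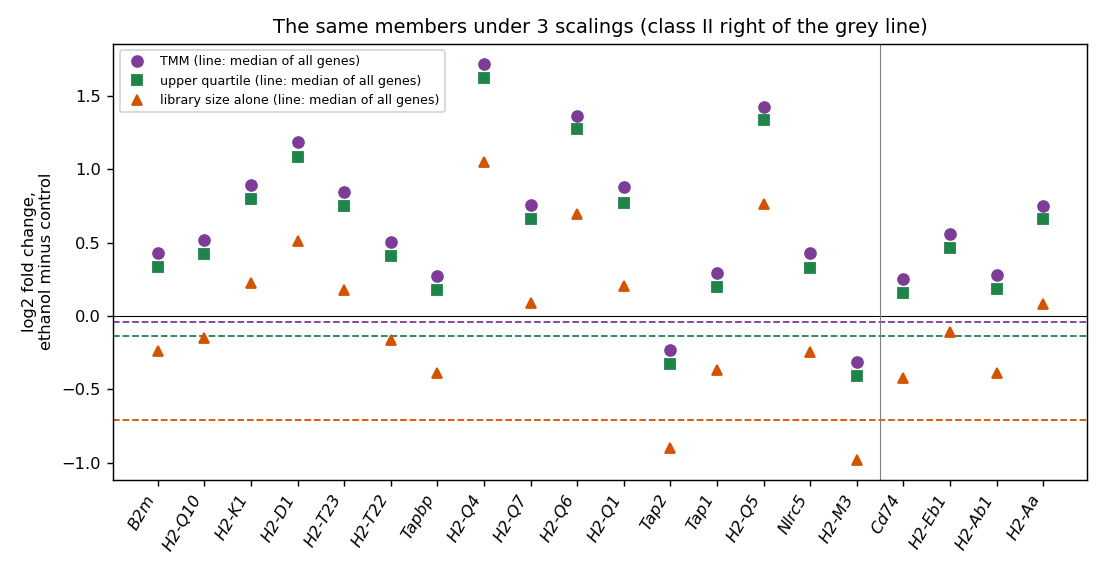
Log2 fold change (ethanol minus control) of class I members with a control mean above 1 TMM-scaled FPKM and of 4 class II members under TMM, upper quartile scaling and library size alone, with a dashed line at the median of all genes under each. TMM and upper quartile scaling put B2m at 0.43 and 0.34 and library size alone at -0.24. Under each scaling H2-D1 and H2-Q4 lie above the median of all genes and Tap2 and H2-M3 below it.

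Class II genes gave 0 upregulated and 0 downregulated DEGs among 10 tested, against 10.4% and 13.8% of all genes. On the adjusted p alone there were also 0 in each direction, and 2 members, H2-Aa and Ciita, had an unadjusted p under 0.05 in edgeR. DESeq2 gave 0 upregulated and 1 downregulated DEG, against 1922 and 2776 genes in all. The 1 was Ciita, which was also a DEG under library size alone (-3.07, adjusted p = 0.0346), beside 5385 downregulated genes in all. Limma on FPKM gave 0 in either direction among the 4 members it tested, which did not include Ciita. Over all genes it gave 498 upregulated and 3090 downregulated on log2(FPKM + 0.1), and 395 and 1702 on log2(FPKM + 1). The groups did not overlap for 1 member higher in ethanol (10% of 10, against 28.0% of all genes) and 1 member, Ciita, lower (against 31.0%). The median log2 fold change was 0.19 under TMM and -0.48 under library size alone, and 6 of 10 lay above the median of all genes. Above zero were 6 under TMM and 2 under library size alone.

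The alpha and beta chains spread widely over the ethanol-exposed mice and hardly over the control mice. H2-Aa, the alpha chain of I-A, stood at 6.96, 4.36 and 3.01 TMM-scaled FPKM in ethanol-exposed and at 2.73, 2.85 and 2.94 in control mice. All 3 ethanol-exposed mice lay above the control mice, replicate 3 by little. Its log2 fold change was 0.75 (SE 0.28, adjusted p = 0.0659), and without ethanol replicate 3 it became a DEG at 1.01. Without ethanol replicate 1 it was 0.38 (adjusted p = 0.180), and under library size alone 0.08 (adjusted p = 0.814). DESeq2 gave an adjusted p of 0.0377 at 0.73, which passes on the adjusted p alone. H2-Ab1, its beta chain, stood at 6.72, 4.28 and 2.60 against 3.86, 3.79 and 3.61, and H2-Eb1, the I-E beta chain, at 9.71, 6.36 and 3.19 against 4.39, 4.67 and 4.06. In both, ethanol replicates 1 and 2 were above and replicate 3 below every control mouse. The log2 fold changes were 0.28 (SE 0.31, adjusted p = 0.496) for H2-Ab1 and 0.56 (SE 0.36, adjusted p = 0.246) for H2-Eb1, and library size alone turned them to -0.39 and -0.11. Without ethanol replicate 3 they were 0.57 (adjusted p = 0.0339) and 0.89 (adjusted p = 0.00486), and without ethanol replicate 1 they were -0.12 and 0.13.

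Cd74, the invariant chain, was the most abundant class II member and followed the same order, with 34.4, 22.1 and 16.1 TMM-scaled FPKM in ethanol-exposed and 21.3, 19.6 and 20.3 in control mice. Its log2 fold change was 0.25 (SE 0.26, adjusted p = 0.456) under TMM and -0.42 under library size alone. Without ethanol replicate 3 it was 0.48 (adjusted p = 0.0447), and without ethanol replicate 1 it was -0.090 (adjusted p = 0.70). H2-Aa over H2-Ab1, free of the scaling, was 1.04, 1.02 and 1.16 in ethanol-exposed and 0.707, 0.752 and 0.816 in control mice, so the groups did not overlap. Cd74 over H2-Ab1 was 5.12, 5.17 and 6.19 against 5.53, 5.18 and 5.63, and here they did.

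**Figure D4:**
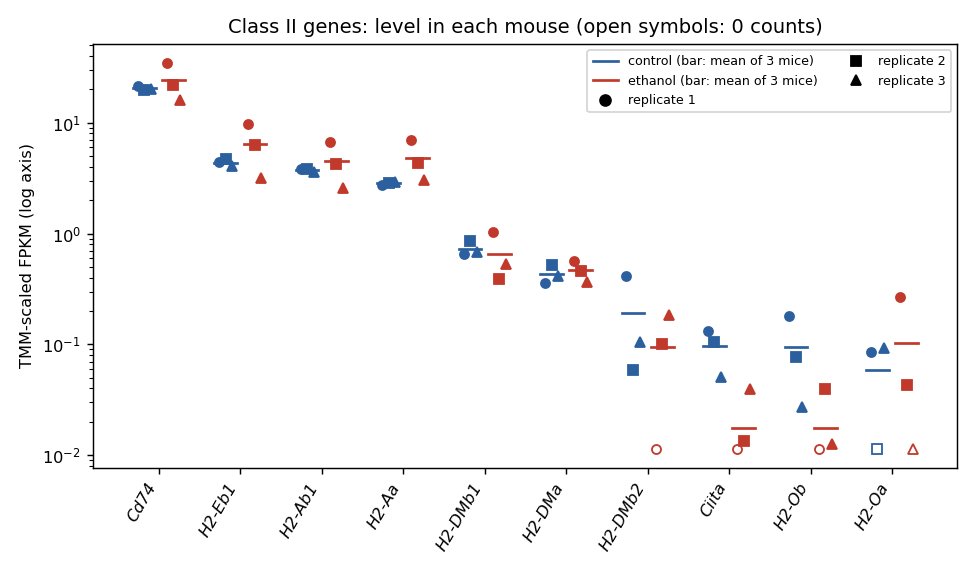
TMM-scaled FPKM (log axis) of the 10 class II members tested in each of 3 control (blue) and 3 ethanol-exposed (red) mice, with bars at the group means and open symbols at the foot for libraries with 0 counts. For Cd74, H2-Eb1, H2-Ab1 and H2-Aa ethanol replicate 1 is the highest and replicate 3 the lowest ethanol-exposed mouse. Library size alone turns Cd74, H2-Eb1, H2-Ab1 and H2-DMa lower in ethanol.

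The accessory chains of the endosome were low in all livers. H2-DMa, with 125, 106 and 77 counts against 127, 149 and 129, had a log2 fold change of 0.13 (SE 0.28, adjusted p = 0.741), which was -0.54 under library size alone. It overlaps Brd2 on the opposite strand. H2-DMb1 was at -0.14 (adjusted p = 0.803) and H2-DMb2 at -1.04 (adjusted p = 0.504), and their windows shared 5.74% and 5.4% with another gene, mostly each other. H2-Oa and H2-Ob, the chains of H2-DO, an inhibitor of H2-DM made mainly in B cells, had at most 24 and 99 counts in any library, and their log2 fold changes of 0.68 and -2.37 did not pass (adjusted p = 0.731 and 0.125). H2-Ob passed the filter mainly through the control libraries and ran from -3.59 without ethanol replicate 2 to -1.53 without control replicate 1. H2-Eb2 was not tested, with 9 counts in 1 control library and 0 in the others.

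Ciita, the class II transactivator, had 0, 9 and 23 counts in ethanol-exposed and 128, 83 and 44 in control mice. The groups did not overlap, and the log2 fold change of -2.39 (SE 1.02) had an adjusted p of 0.0948. Without ethanol replicate 3 Ciita became a DEG at -3.69, and it was a DEG under DESeq2 at -2.43 (adjusted p = 0.0312). It passed the filter mainly through the control libraries and overlaps Dexi on the opposite strand. Neither H2-K2 row was a DEG. The lncRNA, with 651, 772 and 193 counts against 935, 663 and 642, was at 0.05 (adjusted p = 0.927), and the pseudogene that overlaps it, with 16, 53 and 7 counts against 93, 46 and 62, at -0.87 (adjusted p = 0.329). Without ethanol replicate 2 the pseudogene became a DEG at -1.93.

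Markers of the cells that could supply these transcripts were summed in TMM-scaled FPKM, and their DEGs stand beside 10.4% upregulated and 13.8% downregulated of all genes. Fewer cells of a type and less RNA per cell cannot be told apart in whole liver. The chains H2-Aa, H2-Ab1, H2-Eb1 and H2-Eb2 with Cd74 summed to 57.8, 37.1 and 24.9 in ethanol-exposed and 32.3, 30.9 and 31.0 in control mice. Kupffer cell markers, all 10 tested, summed to 88.5, 65.3 and 80.2 against 74.5, 80.2 and 83.1, with no DEG under TMM. On the adjusted p alone 2 markers were lower and 0 higher, beside 21.5% of all genes in each direction. Log2 fold changes were above zero for 4 and below for 6. With library size alone 4 of the 10 were downregulated, namely Adgre1, Clec4f, Csf1r and Vsig4, beside 5385 of all 16717 genes. Dendritic cell markers, 6 of 10 tested, summed to 0.829, 0.852 and 1.88 against 1.41, 2.03 and 1.71, with no DEG under TMM. Of these 1 marker, Zbtb46, was lower on the adjusted p alone (21.5% of all genes) and downregulated under library size alone. Cd209a had 0 counts in every ethanol-exposed and 0 to 20 in the control mice. The mouse with the lowest class II sum thus had the highest dendritic cell sum of its group.

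B cell markers, 9 of 10 tested, summed to 2.53, 2.25 and 1.55 against 3.58, 2.75 and 2.68, the same order over the ethanol-exposed mice as class II. Ms4a1 was downregulated, with 0 to 4 counts against 20 to 28, and it passed the filter only through the control libraries. T and NK cell markers, 5 of 10 tested, summed to 0.222, 0.126 and 0.431 against 1.02, 0.976 and 1.21, with Cd4 downregulated. Cd8a, Cd8b1 and Ncr1 had 0 counts in every ethanol-exposed mouse, and 6 to 14, 0 to 4 and 0 to 12 counts in the control mice. Monocyte and neutrophil markers, 6 of 8 tested, summed to 2.99, 4.96 and 17.97 against 0.637, 0.358 and 0.739, with S100a8, Cxcr2, Retnlg and S100a9 upregulated and Ccr2 downregulated. S100a8, Retnlg and Cxcr2 had at most 4, 8 and 10 counts in control mice and Ccr2 had 0 in ethanol-exposed mice, so these 4 passed the filter mainly through the group in which they were high. Of those not tested, Ly6g had 0 to 9 counts in ethanol-exposed and 0 in control mice, and Chil3 had 0 against 0 to 11. Sinusoidal endothelial markers, all 10 tested, gave 1 upregulated DEG, Lyve1, and 4 downregulated, Kdr, Oit3, Dnase1l3 and Fcgr2b (10.4% and 13.8% of all genes), and summed to 22.998 to 43.6 against 33.5 to 37.8. Without Lyve1 the other 9 summed to 15.3, 19.8 and 21.5 against 36.7, 32.4 and 33.1. Under library size alone 6 of the 10 were downregulated, beside 5385 of all 16717 genes.

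Of 9 hepatocyte markers tested, Fgb and Apoa1 were upregulated (10.4% of all genes) and 6 were higher on the adjusted p alone (21.5% of all genes), with a median log2 fold change of 0.69. Apob (0.09), Cps1 (0.19) and Ass1 (0.34) did not pass (adjusted p = 0.635, 0.342 and 0.138). Their sum was 58700, 56427 and 60242 in ethanol-exposed and 35823, 30873 and 30990 in control mice, 1.80-fold higher, and Alb alone made up 37387 of the ethanol mean of 58456. Sums of class I were 1.51-fold higher over all members, 1.74-fold over the heavy chains and 1.98-fold over H2-K1 and H2-D1 in TMM-scaled FPKM. In FPKM as deposited the same ratios were 0.948, 1.09 and 1.25, so that the sum over all members turned lower. Under library size alone 5 of the 9 markers were above zero. The part of cell composition in the class I and class II results was not tested.

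**Figure D5:**
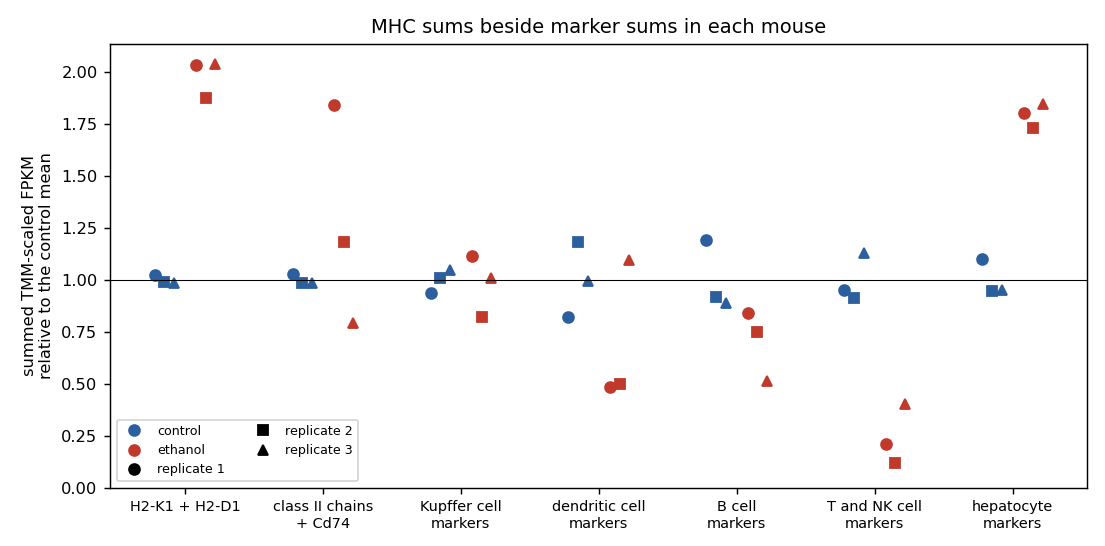
Summed TMM-scaled FPKM of H2-K1 and H2-D1, of the class II chains with Cd74 and of marker lists in each mouse, divided by the control mean. H2-K1 with H2-D1 lies at 1.88 to 2.04 in ethanol-exposed mice and hepatocyte markers at 1.73 to 1.85, while the class II sum spreads from 0.794 to 1.84. In FPKM as deposited, the ethanol mean over the control mean of these 3 sums is 1.25, 1.13 and 0.801.

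Genes that cut and trim peptides for class I did not form DEGs in the proteasome list. Of 6 immunoproteasome and activator genes, 0 were DEGs in edgeR, 3 passed on the adjusted p alone (2 higher and 1 lower) and 4 had an unadjusted p under 0.05, with a median log2 fold change of 0.36. Of all genes 24.2% were DEGs and 43.0% passed on the adjusted p alone. Psmb10, an interferon-inducible catalytic subunit, was at 0.63 (SE 0.11, adjusted p = 0.00387), Psmb8 at 0.36 (SE 0.13, adjusted p = 0.0591) and Psmb9 at -0.58 (SE 0.15, adjusted p = 0.0199). Library size alone turned Psmb10 to -0.04 and Psmb8 to -0.31 and made Psmb9 a downregulated DEG at -1.26. Psmb9 overlaps Tap1 on the opposite strand, with 367 to 461 counts in ethanol-exposed and 750 to 996 in control mice. Of 8 genes listed for loading and trimming in the endoplasmic reticulum, B4galt1 was upregulated (1.76, SE 0.21, adjusted p = 0.000954). B4galt1 is a galactosyltransferase of the Golgi and not itself a loading factor, and Sppl2a, also listed here, is counted again among the class II endosomal genes. The chaperone Calr (-0.87, adjusted p = 0.00157) and Tapbpl, a tapasin relative (-0.82, adjusted p = 0.00357), were lower on the adjusted p alone. The median of the 8 was -0.13. With library size alone B4galt1 stayed upregulated, and Calr (-1.53) and Tapbpl (-1.48) were downregulated DEGs.

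Endosomal genes of class II processing gave 2 upregulated DEGs of 10 and none downregulated, beside 10.4% and 13.8% of all genes. These were the tetraspanin Cd63 (2.34, SE 0.37, adjusted p = 0.00271) and cathepsin L, Ctsl (1.85, SE 0.18, adjusted p = 0.000465), and both were also upregulated under library size alone, where Marchf8, a ubiquitin ligase that acts on class II molecules, was a downregulated DEG at -1.003. On the adjusted p alone 5 of 10 were higher (21.5% of all genes), among them cathepsin S, Ctss (0.68, adjusted p = 0.0304). The median of the 10 was 0.52, and 9 were above zero under TMM against 4 under library size alone.

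Of 13 transcription factors that act on MHC promoters, 3 were upregulated and 3 downregulated, beside 10.4% and 13.8% of all genes, with a median of 0.01. Upregulated were Rfxank, a subunit of the RFX complex (1.72, SE 0.24, adjusted p = 0.00157), and, just past the threshold, Irf8 (1.01, adjusted p = 0.00600) and the NF-kB subunit Rela (1.01, adjusted p = 0.00109). Among those downregulated were Nfya, a Y box binding subunit (-1.31, SE 0.33, adjusted p = 0.0167), and Irf1, which binds interferon elements (-1.09, SE 0.21, adjusted p = 0.00643). Rfx5 was at -0.57 (SE 0.24, adjusted p = 0.0960). Under library size alone 1 was upregulated and 6 were downregulated, beside 846 and 5385 of all 16717 genes.

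Of 15 interferon gamma pathway genes tested, 1 was upregulated and 2 were downregulated, beside 10.4% and 13.8% of all genes. These counts were 1 and 5 under library size alone, beside 846 and 5385 of all 16717 genes on that scale. Socs3, a feedback inhibitor of cytokine signalling, was at 4.60 (SE 0.29, adjusted p = 9.88e-05), with 7437 to 8066 counts in ethanol-exposed and 318 to 532 in control mice. The interferon-inducible GTPases Igtp (-1.66, SE 0.13, adjusted p = 0.000202) and Gbp7 (-1.22, SE 0.30, adjusted p = 0.0147) were lower. The median of the 15 was 0.02, with 8 above and 7 below zero.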

How the data were processed

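Liver libraries were made from total RNA and sequenced in paired-end mode. Whether all 6 shared 1 batch was not tested. Per Ensembl gene the authors deposited whole-number counts of reads, not normalized, and FPKM values scaled to length and library size. The aligner and counter are not given in the sources used here. The submitters' processing notes name GRCm38 and mm10, but 0 of 40 member symbols start in it where the GRCm38 annotation places them, so no coordinate of the table is printed. A further column of counts (1 in number) fits the name of none of the 6 libraries and was left out.

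Counts were filtered by filterByExpr, which keeps genes above a CPM of 0.139 in enough libraries, scaled by TMM and compared, two-sided and without covariates, by the quasi-likelihood test of edgeR in R 4.3.3 (edgeR 4.0.16, limma 3.58.1, DESeq2 1.42.0). P-values were adjusted by Benjamini-Hochberg over all 16717 genes. The DEG thresholds were 0.05 on the adjusted p and 1 on the size of the log2 fold change. The test was tested on simulated data with 200 changed genes. Sequences were read in Python 3.11.15 with Biopython 1.88 and pandas 2.3.3, and plots drawn with matplotlib 3.10.9. Where a gene had several annotated starts, the farthest upstream was used. Coding identity and shared windows were computed on the GENCODE M21 transcripts.

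The members and lists were chosen with earlier results of these data known. Every member that passed the filter is named, and the others are given by counts. Of other lists, DEGs are named up to 6 a list, with Irf1, Rfx5, Psmb8 and Psmb9 whatever their result, and 1 further gene under this rule is not reported here. Calr, Tapbpl, Psmb10, Ctss, Marchf8, Fcgrt, Adgre1, Csf1r, Clec4f, Vsig4, Zbtb46, Alb, Apob, Cps1 and Ass1, as well as markers at 0 counts, were named after their values were seen. Labels number the mice separately, without saying how they were housed. With 3 mice per group, an exact permutation test of a single value cannot go below p = 0.10, so none was run. Counting error is small at these depths for all but the lowest genes, and the number of mice limits the precision. No 2 libraries agreed within sampling noise (the smallest chi-square over its degrees of freedom was 49.6). Alternatives were DESeq2, other scalings, no filter, limma on log2(FPKM + 1) and log2(FPKM + 0.1), the replicate number as a block, no fold threshold, each library left out in turn, and class I genes summed. The endothelial marker sum without Lyve1 was added after seeing the data.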

Additional observations from a re-analysis of the deposited data

How the results depend on the processing

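Most directions and calls held. Of the members' recomputed log2 fold changes, 382 kept their direction and their side of the DEG threshold. A further 10 newly passed it, 17 no longer did and 43 reversed. Under library size alone these numbers were 16, 2, 5 and 11. A kept side did not mean a kept size, as H2-K1 went from 0.89 to 0.22 on that scale. DESeq2 gave 7 upregulated and 1 downregulated class I genes, the latter H2-T24, and 0 upregulated and 1 downregulated class II genes, the latter Ciita. Over all genes it gave 1922 upregulated and 2776 downregulated. Library size alone gave 2 upregulated and 1 downregulated class I genes, 1 downregulated class II gene, and 846 upregulated and 5385 downregulated genes in all, against 1738 and 2301. It reversed B2m (-0.24), H2-Q10 (-0.15), H2-T22 (-0.16), Tapbp (-0.39), Tap1 (-0.37), Nlrc5 (-0.25), H2-DMa (-0.54), H2-Eb1 (-0.11), H2-Ab1 (-0.39), Cd74 (-0.42) and the H2-K2 lncRNA (-0.60), since it shifts log2 fold changes by a median of -0.67 over all genes. All 11 lay above the median of all genes on that scale, -0.71. Limma on FPKM, which keeps the library size scaling, tested 16 class I and 4 class II members. With a pseudocount of 0.1 it gave 1 upregulated class I gene, with 498 upregulated and 3090 downregulated genes in all. That fit reversed B2m (-0.24), H2-Q10 (-0.16), H2-T22 (-0.17), Tapbp (-0.39), Tap1 (-0.38), Nlrc5 (-0.26), H2-Eb1 (-0.25), H2-Ab1 (-0.48), Cd74 (-0.49) and the H2-K2 lncRNA (-0.79). With a pseudocount of 1 it gave 0 upregulated class I genes, with 395 upregulated and 1702 downregulated genes in all. This fit reversed B2m (-0.24), H2-Q10 (-0.16), H2-T22 (-0.16), Tapbp (-0.37), Tap1 (-0.30), Nlrc5 (-0.17), H2-Eb1 (-0.19), H2-Ab1 (-0.38), Cd74 (-0.47) and the H2-K2 lncRNA (-0.61). Upper quartile scaling reversed the H2-K2 lncRNA (-0.037). Without a fold threshold 13 class I genes were higher, with 3598 higher and 3591 lower genes in all. With H2-K1, H2-D1 and the Q and T genes summed, 1 class I feature was upregulated, H2-Bl, which was not in the sum. In all, 1737 were upregulated and 2297 downregulated in that fit.

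Leaving out 1 mouse in turn gave 6 to 8 upregulated and 0 to 1 downregulated class I genes, 0 to 1 upregulated and 0 to 1 downregulated class II genes, and 1490 to 1920 upregulated and 1713 to 2902 downregulated genes in all. Ethanol replicate 3 decided the class II count, as without it H2-Aa was upregulated and Ciita downregulated, and H2-Eb1, H2-Ab1 and Cd74 passed on the adjusted p alone. The range of log2 fold changes crossed zero for H2-DMb1 (-0.64 to 0.12), H2-DMa (-0.046 to 0.28), H2-DMb2 (-1.87 to 0.15), H2-Oa (-1.51 to 1.27), H2-Ab1 (-0.12 to 0.57), Cd74 (-0.090 to 0.48) and the H2-K2 lncRNA (-0.24 to 0.45). H2-T25 reached 7.91 without control replicate 1, where its control counts are 0, so this is no bound. The fit with the replicate number as a block gave 6 upregulated class I genes, with 1518 upregulated and 2000 downregulated genes in all. It lost H2-Q2 (1.25), took the adjusted p of B2m to 0.0509 and turned the H2-K2 lncRNA to -0.12. Deviations of mice with the same number correlated at -0.04, -0.03 and -0.01. They were taken from the mean of each small group, so these values cannot show whether the numbers pair the mice. The causes of these changes were not tested beyond the shift named above.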

Other observations

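Class I-like genes outside the H2 symbols, 10 tested, gave 0 upregulated and 2 downregulated DEGs, beside 10.4% and 13.8% of all genes, with a median log2 fold change of 0.09. These were Raet1d (log2 fold change -1.34, SE 0.21, adjusted p = 0.00246) and Raet1e (-1.26, SE 0.26, adjusted p = 0.00795), ligands of the activating receptor NKG2D of natural killer cells. Raet1d had 237 to 429 counts in ethanol-exposed and 1027 to 1495 in control mice, and Raet1e 93 to 151 against 370 to 613, so neither pair of ranges overlapped. Both were also downregulated under library size alone. Fcgrt, the neonatal Fc receptor that shares B2m as its light chain, was at 0.64 (adjusted p = 0.00814) under TMM and -0.03 under library size alone.

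Of T cell costimulation genes, 4 were tested, and Icosl, the ligand of ICOS, was upregulated, beside 10.4% of all genes (1.40, SE 0.33, adjusted p = 0.0132), with 93 to 176 counts against 57 to 82. It was not a DEG under library size alone (0.75). All adjusted p-values here are from edgeR's quasi-likelihood test.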
